A study of Mus musculus with 15 samples.

Results

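The presynaptic active zone and release machinery was followed here as 9 genes: Unc13a, Rims1, Rims3, Bsn, Pclo, Syt1, Cplx1, Cplx2 and Snap25. The members were all transcripts carrying 1 of these gene names in the GENCODE M21 annotation (build GRCm38, mm10) that are listed in the deposited table, which gave 24 of 10370 transcripts and 9 of 7739 genes. The members were chosen by gene name and by the listing itself, which rests on measured level: a listed transcript had a mean of at least 107.9 normalized counts, so the 15 of 39 annotated transcripts of these genes that are not listed were not analysed here. Over all libraries, the lowest-level members were Rims1-202, with group means of 192 (Sham) and 166 (HF-HI) normalized counts, and Syt1-204, with 230 and 218. In Sham alone the lowest mean was that of Bsn-202, at 175. Its Sham median of 91.0 lay under 107.9, and its HF-HI mean was 362. The 9 genes were picked with results of the same comparison known, so their counts below are a description and are no evidence about the group of genes.

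High-frequency head impact (HF-HI) is a mouse model in which anesthetized animals take repeated impacts to the head over consecutive days, and the control mice went through a sham procedure. Total RNA was taken from the dissected cortex of male C57BL/6 mice, with an age label of 12 weeks, 1 month after the procedure. There were 7 Sham and 8 HF-HI libraries, and both groups shared strain, sex, tissue, age label and time point. The labels number the libraries but do not say that each came from a separate mouse, so the p-values measure the spread between libraries, which may be technical.

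At a chemical synapse, vesicles dock and are primed at the active zone, a protein scaffold that holds them beside calcium channels. RIM proteins, Munc13, Bassoon and Piccolo build this zone, SNARE proteins such as SNAP-25 pull vesicle and plasma membrane together, complexins hold and promote the assembled SNARE complex, and synaptotagmin-1 senses the calcium that triggers release. In cortex these genes are expressed by neurons, excitatory and inhibitory alike. In a homogenate, fewer cells of a type and less RNA per cell cannot be told apart.

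Several of these genes are listed as transcripts that differ by an exon or a start site, and the exon sequences below show what sets such transcripts apart. Of the transcript shares tested further on, only those of Rims3 passed the adjusted threshold in the main fit, and those of Snap25 and Unc13a did not. Snap25 has alternative copies of exon 5, of which a transcript holds only 1. Snap25-201 carries the downstream copy (chr2:136770057-136770174, + strand, GRCm38) and Snap25-202 the upstream copy (chr2:136769743-136769860, + strand). Both are coding and 118 bases long, and they differ at 31 positions, marked by capitals, which leaves 73.7% identity.
Snap25-201: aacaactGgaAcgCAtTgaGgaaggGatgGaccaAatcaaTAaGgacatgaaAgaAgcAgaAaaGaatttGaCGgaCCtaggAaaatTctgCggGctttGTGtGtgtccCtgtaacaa
Snap25-202: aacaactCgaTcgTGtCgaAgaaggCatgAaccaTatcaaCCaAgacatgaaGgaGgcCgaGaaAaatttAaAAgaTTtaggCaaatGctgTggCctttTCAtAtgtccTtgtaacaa

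Unc13a-208 carries a coding exon of 57 bases, its exon 42 of 45, that Unc13a-201 skips (chr8:71633439-71633495, - strand). It also ends in a shorter last exon, and the remaining internal exons are shared.
Unc13a-208: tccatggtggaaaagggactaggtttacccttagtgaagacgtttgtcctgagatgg

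Rims3-201 and Rims3-202 have the same coding exons and differ in a noncoding leader exon, so their start sites lie 6958 bases apart. The leader of Rims3-201 spans chr4:120854819-120855122 and that of Rims3-202 spans chr4:120861777-120862012. RefSeq promoter windows (GRCm38.p6, 250 bases before a start site and 50 after) matched 8 of the 9 genes in 9 windows, and the Rims3 window lies 20 bases from the start of Rims3-201, not at that of Rims3-202. The windows of Rims3 (chr4:120854549-120854848, + strand), Unc13a (chr8:71671708-71672007, - strand) and Cplx1 (chr5:108549978-108550277, - strand) are shown because these genes held the 3 member transcripts with the smallest p. Capitals mark GGGCGG or its complement CCGCCC, the GC box bound by Sp1-family factors.
Rims3: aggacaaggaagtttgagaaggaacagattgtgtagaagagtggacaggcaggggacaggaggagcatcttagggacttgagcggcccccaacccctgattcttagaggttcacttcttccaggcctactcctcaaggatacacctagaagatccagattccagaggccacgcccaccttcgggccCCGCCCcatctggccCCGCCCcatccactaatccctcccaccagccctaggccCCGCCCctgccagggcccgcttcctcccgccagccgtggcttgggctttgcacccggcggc
Unc13a: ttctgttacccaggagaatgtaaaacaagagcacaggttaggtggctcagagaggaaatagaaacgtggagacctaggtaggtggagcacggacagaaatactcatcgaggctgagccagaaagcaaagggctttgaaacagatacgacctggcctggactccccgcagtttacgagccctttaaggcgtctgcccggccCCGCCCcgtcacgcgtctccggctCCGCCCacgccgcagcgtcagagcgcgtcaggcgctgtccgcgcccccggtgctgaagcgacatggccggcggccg
Cplx1: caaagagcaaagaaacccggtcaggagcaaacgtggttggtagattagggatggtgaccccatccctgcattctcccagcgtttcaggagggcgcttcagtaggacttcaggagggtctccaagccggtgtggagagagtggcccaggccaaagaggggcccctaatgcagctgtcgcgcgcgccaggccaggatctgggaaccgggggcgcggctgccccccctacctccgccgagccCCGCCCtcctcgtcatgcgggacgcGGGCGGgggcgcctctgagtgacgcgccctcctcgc

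The GC box occurred 3 times in the windows of Rims3 and Rims1, 4 times in that of Pclo, 2 times each in those of Unc13a and Cplx1, and once in 1 of the 2 windows of Syt1. It did not occur in the windows of Bsn and Cplx2, and 35.7% of all 32851 promoter windows held it on either strand. The cAMP response element TGACGTCA (1.79% of all windows) and the TATA-box letters TATAAA (13.6%) occurred in none of the 9 member windows. The Cplx2 window lies 68793 bases from the start of the listed Cplx2 transcript.

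The 9 genes spanned a wide range of levels. Snap25 was the highest at 7584 ± 594 normalized counts per kb of transcript (SD over 15 libraries), followed by Syt1 at 2848 ± 103, and every library kept this order. The complexins came next, Cplx1 at 1029 ± 80.8 and Cplx2 at 933 ± 65.3 per kb, with Cplx1 above Cplx2 in 14 of 15 libraries.

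The scaffold and priming genes were lower and close together. On the same scale, Rims1 stood at 403 ± 16.9, Unc13a at 390 ± 26.5, Bsn at 384 ± 36.3, Pclo at 346 ± 21.2 and Rims3 at 326 ± 28.2 per kb. Rims1 lay above Unc13a in 12 of 15 libraries and Unc13a above Bsn in 8, and the differences between neighbours were not tested. Bsn exceeded Pclo in all 15 libraries, and Pclo exceeded Rims3 in 13.

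**Figure D1:**
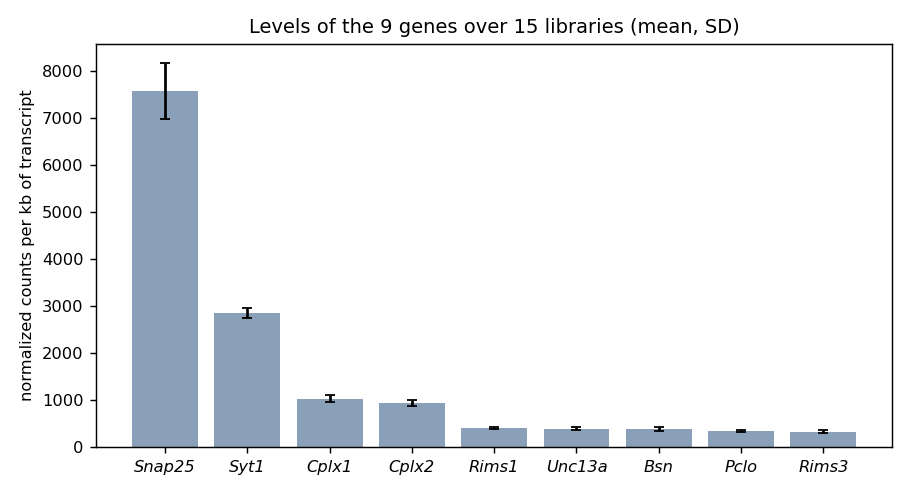
Level of each of the 9 genes in normalized counts per kb of transcript (y axis), summed over listed transcripts. Bars are means and error bars SDs over 15 libraries. Snap25 at 7584 and Syt1 at 2848 stand far above the scaffold genes, which lie between 326 and 403.

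The libraries differed in ways that bear on the comparison. Sham libraries held 5798810 to 10582858 recovered reads and HF-HI libraries 3496103 to 8666307, and 1 read was worth between 0.679 and 1.997 normalized counts. Size factors (the relative depth of a library) were 0.818 to 1.47 in Sham and 0.501 to 1.22 in HF-HI, and the 3 shallowest libraries, HF-HI 2, 4 and 7, were all HF-HI. HF-HI 2 also stood apart on the first principal component (14.3% of variance), at 12.6 against -3.35 to 0.721 for the others. Cortical glutamatergic markers summed to 16617 to 18626 normalized counts in Sham and 17548 to 19355 in HF-HI, with 7 of 8 marker genes listed and the defining marker Emx1 not listed. Of their 8 transcripts 5 had a positive difference and 2 were higher at an unadjusted p under 0.05 (limma), a threshold that 8.83% of all listed transcripts passed. Striatal markers summed to 7110 to 10830 and 5063 to 10294, with 8 of 9 genes listed, Drd2 not among them. Of their 15 transcripts 4 had a positive difference, and 3 were lower at the same threshold. The summed choroid plexus markers, of which 2 of 6 genes were listed, reached 11091 to 13832 in Sham 1 and 2 and HF-HI 2 and 5, and 1972 to 2384 elsewhere.

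Comparing HF-HI with Sham, 6 of the 24 member transcripts differed at an unadjusted p under 0.05 (limma), and all 6 were higher in HF-HI: Unc13a-201, Rims3-202, Cplx1-201, Snap25-201, Pclo-204 and Bsn-202. That is 25% of members, where 8.83% of all listed transcripts passed this threshold, 4.94% of them higher and 3.9% lower in HF-HI. Values are means ± SD over 7 Sham and 8 HF-HI libraries. No transcript passed an adjusted p under 0.1, among members (0 of 24) or over the whole table (0 of 10370), and the smallest adjusted p among members was 0.350. The median log2 ratio of the members was 0.07, against -0.002 over all transcripts, and 17 of 24 had a positive difference, as did 5028 of 10370 over all. In none of the 24 were the groups free of overlap, as they were in 0.154% of all transcripts.

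**Figure D2:**
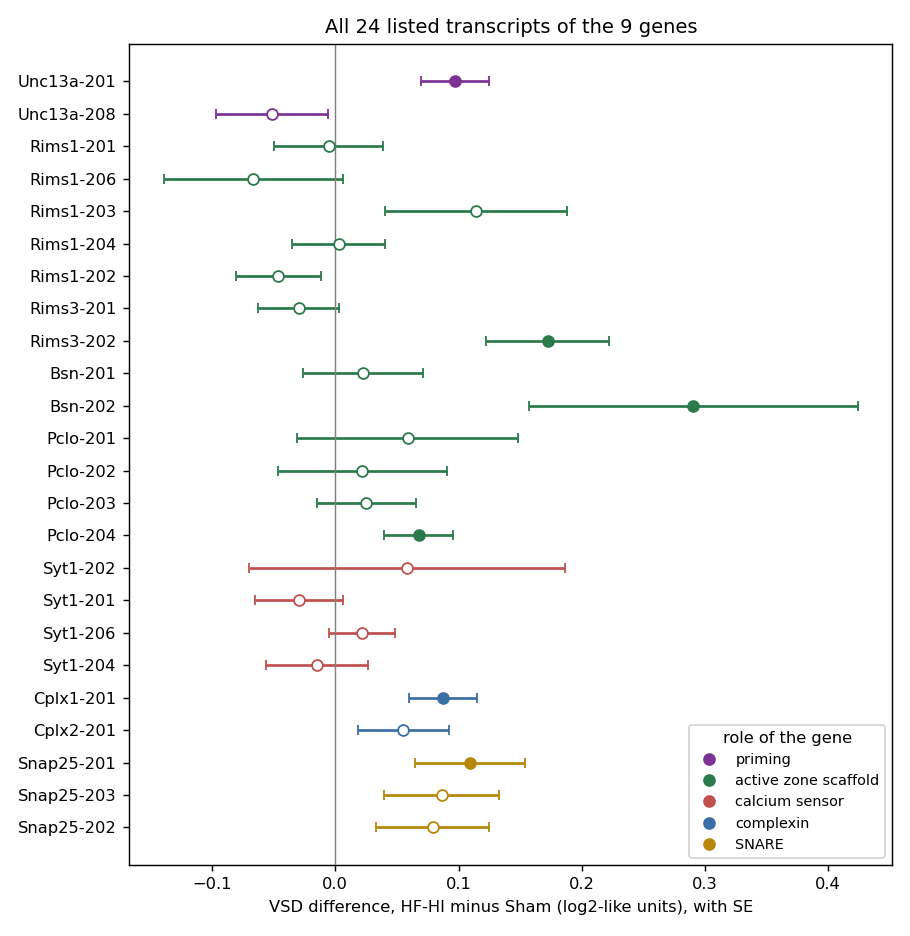
Difference in variance-stabilized (VSD) value, HF-HI minus Sham, of all 24 member transcripts (x axis, with SE), coloured by the role of the gene. Filled circles are the 6 with an unadjusted p under 0.05, all to the right of 0, and Bsn-202 has the largest difference and a wide error.

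Unc13a encodes Munc13-1, which primes docked vesicles for fusion. Unc13a-201 (ENSMUST00000030170, chromosome 8, 71624417 to 71671757, - strand) spanned 1845 to 2080 normalized counts among Sham libraries (median 1891) and 1976 to 2448 among HF-HI libraries (median 2142). The Sham median was exceeded by all 8 HF-HI libraries, and 5 of them exceeded every Sham library, so the groups overlapped in part. The means were 1940 ± 93.5 and 2171 ± 156 (SD), a log2 ratio of 0.16 and a VSD difference of 0.10 (SE 0.03, limma unadjusted p = 0.00294, adjusted p = 0.350).

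Unc13a-208 (ENSMUST00000177517), which holds the extra exon printed above, was not past the threshold. Sham libraries spanned 974 to 1272 normalized counts (median 1098) and HF-HI libraries 781 to 1360 (median 1019), with means of 1108 ± 99.5 and 1034 ± 174 (limma unadjusted p = 0.276, adjusted p = 0.776). With both transcripts summed, Unc13a had 3048 ± 174 (Sham) and 3205 ± 188 (HF-HI) normalized counts (limma voom, unadjusted p = 0.0988, adjusted p = 0.632).

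RIM proteins tether vesicles, recruit Munc13 and anchor calcium channels, and Rims3 encodes a short RIM that lacks most of the domains of RIM1. Rims3-202 (ENSMUST00000106283, chromosome 4, 120861777 to 120896579, + strand) spanned 571 to 881 normalized counts among Sham libraries (median 778) and 815 to 1316 among HF-HI libraries (median 908). Again all 8 HF-HI libraries exceeded the Sham median and 5 exceeded every Sham library. The means were 748 ± 97.9 and 986 ± 179, a log2 ratio of 0.40 and a VSD difference of 0.17 (SE 0.05, limma unadjusted p = 0.00330, adjusted p = 0.351).

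Rims3-201 (ENSMUST00000071093), which starts at the upstream leader exon, spanned 1141 to 1576 normalized counts in the Sham group (median 1220) and 1054 to 1338 in the HF-HI group (median 1208). The HF-HI values lay in the lower part of the Sham range or below it, with means of 1267 ± 146 and 1214 ± 81.5 (VSD difference -0.03, SE 0.03, limma unadjusted p = 0.378, adjusted p = 0.829). Sham 5 alone set the top of that range, and the next highest Sham library, Sham 2, had 1320. Without Sham 5 the VSD difference was -0.00157 (limma unadjusted p = 0.948).

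Rims1, which encodes the large scaffold RIM1, had none of its 5 listed transcripts past an unadjusted p under 0.05 (limma). Its most abundant transcript, Rims1-201 (ENSMUST00000081544), spanned 552 to 792 normalized counts among Sham libraries (median 688) and 498 to 933 among HF-HI libraries (median 691). The HF-HI libraries reached past the Sham range on both sides, with means of 690 ± 84.0 and 687 ± 125 (VSD difference -0.01, SE 0.04, limma unadjusted p = 0.905, adjusted p = 0.984). The smallest p in the gene belonged to Rims1-203, with means of 384 ± 99.0 and 498 ± 165 (limma unadjusted p = 0.143, adjusted p = 0.683).

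Bassoon and Piccolo, encoded by Bsn and Pclo, are very large scaffold proteins that organize the vesicle cluster around the active zone. Bsn-201 (ENSMUST00000035208), which carries nearly all reads of its gene, spanned 4539 to 6451 normalized counts among Sham libraries (median 5429) and 4962 to 6007 among HF-HI libraries (median 5638). All HF-HI values fell inside the Sham range, with means of 5490 ± 596 and 5588 ± 360 (VSD difference 0.02, SE 0.05, limma unadjusted p = 0.649, adjusted p = 0.923).

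Bsn-202 (ENSMUST00000124763, chromosome 9, 108096023 to 108110413, - strand) covers the 3' part of the gene and shares most of its bases with Bsn-201. It was the most variable member, spanning 14.7 to 428 normalized counts among Sham libraries (median 91.0) and 52.3 to 570 among HF-HI libraries (median 443). Of the HF-HI libraries, 7 exceeded the Sham median and 5 exceeded every Sham library, but 2 Sham libraries reached 371 or more. The means were 175 ± 161 and 362 ± 183, a log2 ratio of 1.05 and a VSD difference of 0.29 (SE 0.13, limma unadjusted p = 0.0454, adjusted p = 0.557). The read division between these transcripts is an estimate made by the authors' quantifier, so a value this small beside Bsn-201 is uncertain.

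Pclo-204 (ENSMUST00000182915, chromosome 5, 14680863 to 14796004, + strand) was the only 1 of 4 Pclo transcripts past the unadjusted threshold. It spanned 592 to 726 normalized counts among Sham libraries (median 642) and 613 to 857 among HF-HI libraries (median 714), with 7 HF-HI libraries over the Sham median and 3 above every Sham library. Its means were 656 ± 45.7 and 738 ± 81.6 (log2 ratio 0.17, VSD difference 0.07, SE 0.03, limma unadjusted p = 0.0279, adjusted p = 0.514). The most abundant, Pclo-202 (ENSMUST00000182407), spanned 2556 to 3181 (median 2880) and 1945 to 3336 (median 3130) in the same order, with means of 2849 ± 218 and 2941 ± 507 (VSD difference 0.02, SE 0.07, limma unadjusted p = 0.753, adjusted p = 0.950).

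Syt1 encodes synaptotagmin-1, the vesicle calcium sensor for fast release. Its main transcript, Syt1-201 (ENSMUST00000064054), spanned 9257 to 10621 normalized counts among Sham libraries (median 9995) and 8673 to 10645 among HF-HI libraries (median 9741). The lowest value was an HF-HI library and the highest values of both groups were alike, with means of 9966 ± 491 and 9735 ± 577 (VSD difference -0.03, SE 0.04, limma unadjusted p = 0.418, adjusted p = 0.848). Syt1-202, whose coding exons are the same, spanned 722 to 1894 (Sham) and 580 to 2118 (HF-HI) normalized counts, and the remaining transcripts, Syt1-206 and Syt1-204, also had an unadjusted p over 0.05.

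Complexins bind the assembled SNARE complex, clamping it before and aiding fusion at the calcium signal. Cplx1-201 (ENSMUST00000046892, chromosome 5, 108518554 to 108550024, - strand), the only listed transcript of its gene, spanned 2040 to 2232 normalized counts among Sham libraries (median 2124) and 2070 to 2664 among HF-HI libraries (median 2327). Of the HF-HI libraries, 7 lay above every Sham library and only HF-HI 1 lay within the Sham range. The means were 2135 ± 78.0 and 2357 ± 176, a log2 ratio of 0.14 and a VSD difference of 0.09 (SE 0.03, limma unadjusted p = 0.00650, adjusted p = 0.398).

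Cplx2-201 (ENSMUST00000026985, chromosome 13, 54371349 to 54383917, + strand) encodes the complexin most typical of excitatory forebrain neurons. It spanned 4234 to 4931 normalized counts among Sham libraries (median 4357) and 4014 to 5108 among HF-HI libraries (median 4801). Of the HF-HI libraries 7 exceeded the Sham median and 2 exceeded every Sham library. The means of 4471 ± 262 and 4709 ± 344 did not pass the threshold (VSD difference 0.06, SE 0.04, limma unadjusted p = 0.153, adjusted p = 0.694).

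Snap25 encodes a plasma membrane SNARE of the complex that drives vesicle fusion. Snap25-201 (ENSMUST00000028727, chromosome 2, 136713453 to 136782428, + strand) spanned 12774 to 15763 normalized counts among Sham libraries (median 14761) and 14428 to 16980 among HF-HI libraries (median 16132). The groups overlapped, with 7 HF-HI libraries over the Sham median and 5 over every Sham library. The means were 14637 ± 1092 and 15912 ± 931, a log2 ratio of 0.12 and a VSD difference of 0.11 (SE 0.04, limma unadjusted p = 0.0274, adjusted p = 0.514). Snap25-202, with the other copy of the exon, had 223 ± 45.5 and 279 ± 74.0 (limma unadjusted p = 0.105), and Snap25-203, which retains an intron, had 422 ± 46.8 and 509 ± 127 (unadjusted p = 0.0850).

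**Figure D3:**
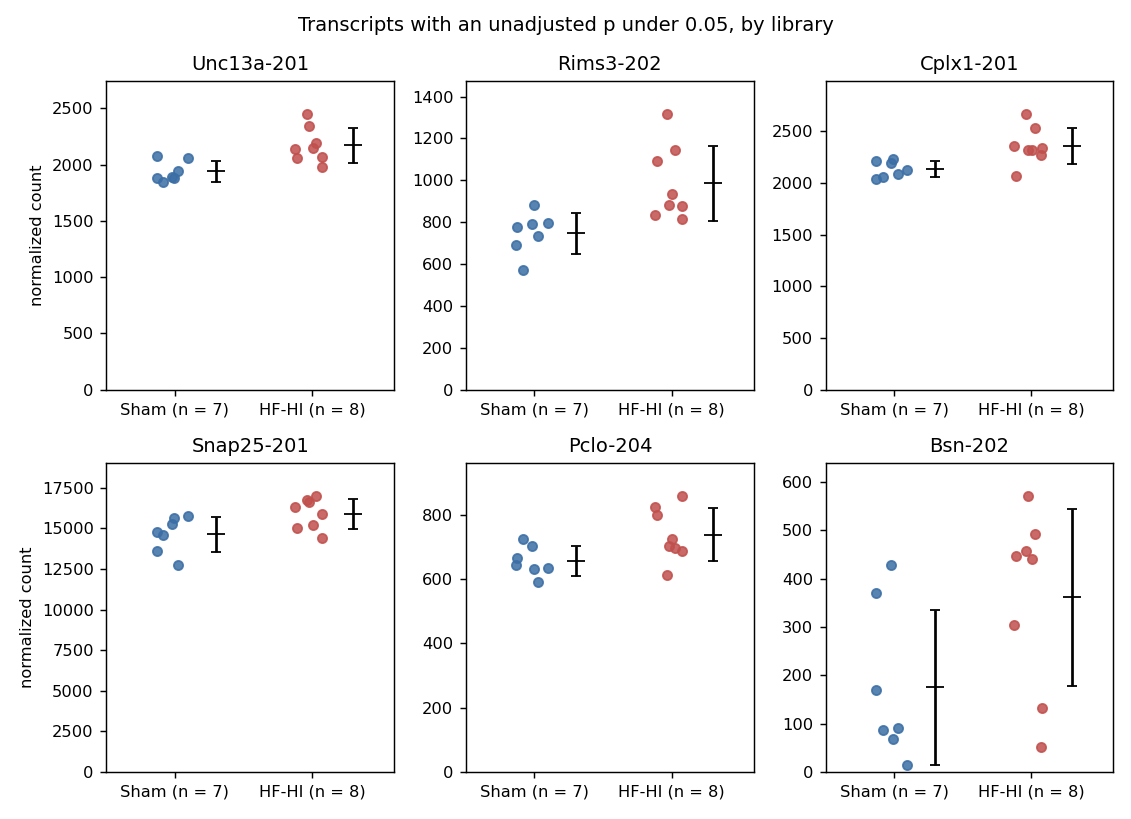
Normalized counts (y axis, from 0) of the 6 transcripts with an unadjusted p under 0.05, a point per library and the mean with SD beside each group (7 Sham, 8 HF-HI). The HF-HI mean is higher in each panel and the points overlap, least so in Cplx1-201, where 7 HF-HI libraries lie above all Sham libraries.

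With the reads of all listed transcripts summed per gene, 3 of the 9 genes differed at an unadjusted p under 0.05 (limma voom), Cplx1, Snap25 and Rims3, and all 3 were higher in HF-HI. Over all 7739 genes, 9.43% passed this threshold, 5.19% in the higher direction, and 1 gene (0.0129%), not a member, passed an adjusted p under 0.1. Cplx1 had a log2 difference of 0.13 (SE 0.04, limma voom unadjusted p = 0.00517, adjusted p = 0.292). Snap25 went from 15281 ± 1119 to 16700 ± 984 normalized counts, a log2 difference of 0.13 (SE 0.05, limma voom unadjusted p = 0.0130, adjusted p = 0.404).

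Summed Rims3 spanned 1890 to 2353 normalized counts among Sham libraries (median 1953) and 2045 to 2522 among HF-HI libraries (median 2154), with every HF-HI library over the Sham median. The log2 difference was 0.12 (SE 0.05, limma voom unadjusted p = 0.0316, adjusted p = 0.474), and it was no longer past the threshold without any 1 of Sham 1, 2, 4 or 6 or HF-HI 4 or 7, with a highest p of 0.0657. Cplx1 and Snap25 kept an unadjusted p under 0.05 with each library left out in turn.

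The other 6 gene sums did not pass. Pclo had 4742 ± 277 and 5030 ± 430 normalized counts (limma voom unadjusted p = 0.137), Bsn 5666 ± 485 and 5950 ± 469 (unadjusted p = 0.233), and Rims1 2170 ± 97.1 and 2204 ± 84.9 (unadjusted p = 0.466). Syt1 was nearly flat in Sham, from 11839 to 12108, and among HF-HI libraries it spanned 10003, in HF-HI 2, to 12533. Its log2 difference was -0.01 (SE 0.03, limma voom unadjusted p = 0.726), and 0.02 without HF-HI 2 (unadjusted p = 0.291).

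The share of each transcript within its gene was tested next (limma diffSplice), which asks whether the listed transcripts of a gene moved differently. Of the 7 member genes with several listed transcripts, Rims3 alone had an adjusted p under 0.1, as did 3.97% of the 1637 genes tested. Rims3-202 made up 37.2 ± 4.40% of the counts of Rims3 in Sham (30.2 to 42.5%, median 37.5%) and 44.6 ± 5.28% in HF-HI (38.3 to 52.2%, median 43.0%). Every HF-HI library exceeded the Sham median and 4 exceeded all Sham libraries (limma diffSplice F = 11.7, unadjusted p = 0.00190, adjusted p = 0.0741).

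Rims3 lost this call with log2 size factor as a covariate (adjusted p = 0.391), without the 3 shallowest libraries (0.212), with the striatal markers as a covariate (0.107), and without any 1 of Sham 1, 2 or 4 or HF-HI 1, 4 or 7 (all limma diffSplice). Because the authors' quantifier divides reads among transcripts that share exons, shares within a gene are not independent estimates, and 16.5% of genes had an unadjusted p under 0.05 in this test.

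For Unc13a, the form with the extra exon, Unc13a-208, made up 36.3 ± 1.63% in Sham (34.1 to 39.0%, median 35.8%) and 32.2 ± 4.34% in HF-HI (24.2 to 38.3%, median 31.7%). The share was below every Sham library in 6 HF-HI libraries and inside the Sham range in the other two. It did not pass the adjusted threshold (limma diffSplice unadjusted p = 0.0119, adjusted p = 0.178), except without HF-HI 7 (0.0927) or HF-HI 8 (0.0919).

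The remaining genes with several transcripts had adjusted p-values over 0.3 in this test. Snap25-201, with the downstream copy of exon 5, made up 95.8 ± 0.376% in Sham and 95.3 ± 0.722% in HF-HI, and Snap25-202 made up 1.46 ± 0.327% and 1.66 ± 0.426% (limma diffSplice adjusted p for the gene = 0.866). Bsn-202 made up 3.25 ± 3.17% and 5.96 ± 2.88% (adjusted p = 0.306), and the adjusted p was 0.598 for Rims1, 0.918 for Syt1 and 0.956 for Pclo.

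**Figure D4:**
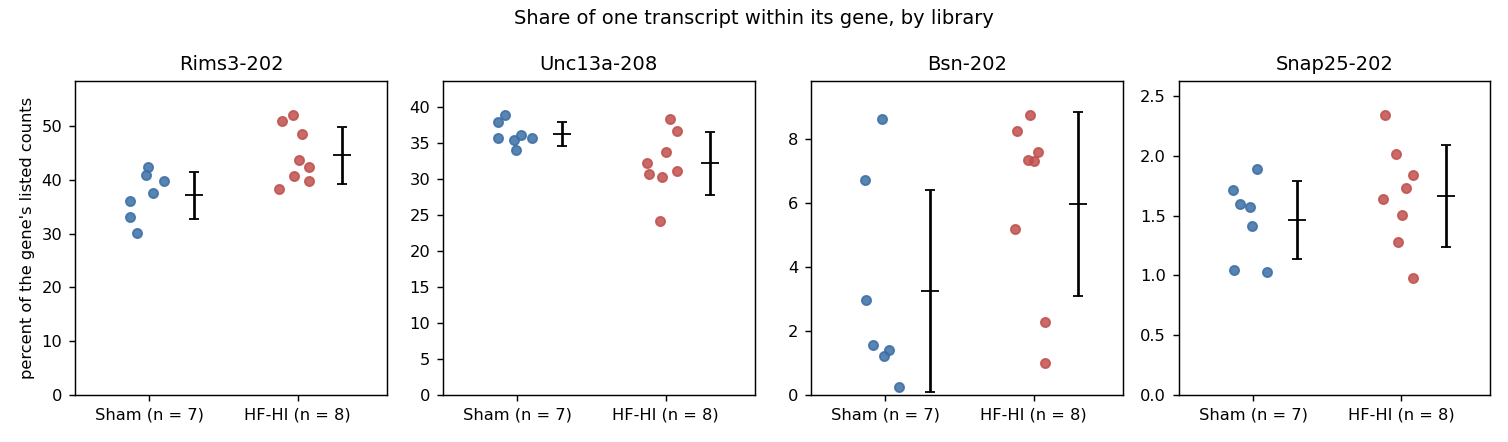
Share of a transcript in the listed counts of its gene (y axis, percent from 0), a point per library and the mean with SD beside each group. Rims3-202 lies higher in HF-HI (44.6% against 37.2%), Unc13a-208 lower (32.2% against 36.3%), and Snap25-202 has means of 1.46% and 1.66% with wide overlap.

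Depth moved with several of these values. Unc13a-201 had a mean of 2236 normalized counts in the 3 shallowest HF-HI libraries, 2133 in the 5 deeper ones and 1940 in Sham, and for Rims3-202 these means were 1091, 923 and 748. Cplx1-201 gave 2488, 2278 and 2135, and Snap25-201 gave 16548, 15530 and 14637. In all 4 the mean of the deeper HF-HI libraries thus stood between those of the shallow ones and Sham. Pclo-204 (722, 748 and 656 in the same order) and Bsn-202 (334, 379 and 175) were highest in the deeper HF-HI libraries.

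With the log2 size factor as a covariate, 1 of the 24 members, Pclo-204, had an unadjusted p under 0.05 (limma unadjusted p = 0.0269), where 5.14% of all transcripts did. In that fit the limma unadjusted p was 0.0619 for Unc13a-201, 0.0621 for Rims3-202, 0.0520 for Bsn-202, 0.105 for Cplx1-201 and 0.418 for Snap25-201, with all differences still positive. No gene sum passed in it (0 of 9).

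Without HF-HI 2, 4 and 7, 6 members passed, where 6.33% of all transcripts did. They were Unc13a-201 (limma unadjusted p = 0.0118), Rims3-202 (unadjusted p = 0.0079), Cplx1-201 (unadjusted p = 0.0312), Pclo-204 (unadjusted p = 0.00981), Bsn-202 (unadjusted p = 0.0360) and Snap25-203 (unadjusted p = 0.0379), while Snap25-201 did not pass (unadjusted p = 0.154). Of the gene sums, only Cplx1 passed without these libraries. Depth and group overlap in these libraries.

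**Figure D5:**
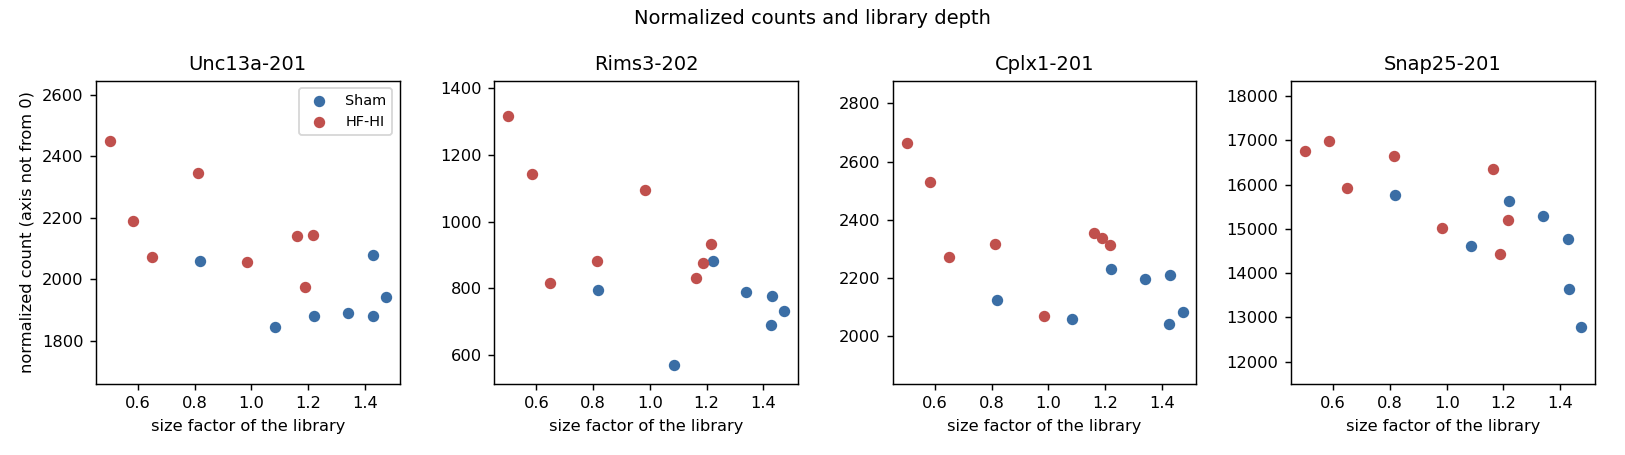
Normalized counts (y axis, not from 0) of Unc13a-201, Rims3-202, Cplx1-201 and Snap25-201 against the size factor of each library (x axis), coloured by group. The 3 libraries with a size factor under 0.7 are all HF-HI and include the highest HF-HI value of each panel.

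Among the marker sums, the striatal sum had a log2 ratio of -0.27 (HF-HI over Sham) and the cortical glutamatergic sum 0.07, with overlap between the groups in both. The remaining sums had log2 ratios between -0.06 and 0.07, and the sums themselves were not tested. With the mean of the striatal markers as a covariate, Unc13a-201, Rims3-202, Cplx1-201 and Snap25-201 kept an unadjusted p under 0.05 (limma unadjusted p = 0.00601 to 0.0301), while Pclo-204 (unadjusted p = 0.0510) and Bsn-202 (unadjusted p = 0.0596) did not, and Cplx2-201 passed (unadjusted p = 0.0358). That made 5 of 24 members, where 8.13% of all transcripts passed. Of the gene sums in this fit, Cplx1 and Snap25 kept the call, Rims3 lost it (limma voom unadjusted p = 0.0878) and Cplx2 gained it (unadjusted p = 0.0334). The part of the cortical glutamatergic markers in these differences was not tested.

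Leaving out each library in turn, Unc13a-201, Rims3-202 and Cplx1-201 had an unadjusted p under 0.05 in all 15 fits. Snap25-201 did so in 10 and failed without Sham 4 or 5 or HF-HI 4, 6 or 7. Pclo-204 did so in 10 and failed without Sham 4 or 7 or HF-HI 1, 2 or 3, where the highest limma unadjusted p was 0.0622, against 0.0658 for Snap25-201. Bsn-202 did so in 4, those without Sham 1 or 6 or HF-HI 2 or 8, with a highest limma unadjusted p of 0.106. Without HF-HI 2, the library that stood apart, 6 members passed, where 8.69% of all transcripts did, but Pclo-204 was lost (limma unadjusted p = 0.0556) and Snap25-203 took its place.

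The rest of the release machinery was read from 5 lists written from general knowledge, with 83 of 97 genes listed and 132 transcripts. Of these, 5 had an unadjusted p under 0.05 (3.79%, where 8.83% of all transcripts did), 3 higher and 2 lower, with a smallest adjusted p of 0.411 and a median log2 ratio of 0.01. None of 20 transcripts of SNAREs and Munc18 and none of 24 of synaptic vesicle proteins passed.

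Among RIM, Munc13 and scaffold genes 2 of 32 passed. Lin7c-201, of a scaffold protein of the Veli family, was lower, with 1074 ± 20.7 (Sham) and 984 ± 74.3 (HF-HI) normalized counts (8 of 8 HF-HI libraries below the Sham median, limma unadjusted p = 0.00984). Tspoap1-209, an intron-retaining transcript of a RIM-binding protein gene, was higher, at 462 ± 50.7 and 545 ± 83.8 (limma unadjusted p = 0.0255).

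Among complexins and calcium sensors 1 of 17 passed, Cadps2-209 of a dense-core vesicle priming protein, at 604 ± 83.9 and 706 ± 104 (limma unadjusted p = 0.0499). Other Cadps2 transcripts went both ways in mean. Cadps2-213 (151 and 106, limma unadjusted p = 0.0586) and Cadps2-205 (200 and 178) were lower, and Cadps2-201 (153 and 178) was higher. Among endocytosis genes 2 of 39 passed. Bin1-202, of amphiphysin 2, was higher at 310 ± 66.4 and 389 ± 73.5 (limma unadjusted p = 0.0320), and Cltb-202, of clathrin light chain B, was lower at 355 ± 33.8 and 306 ± 54.8 (limma unadjusted p = 0.0432).

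The member genes varied together only in part between libraries. Over the 15 libraries, with each group centred on its mean, Pearson's r between the leading transcripts ran from -0.45 for Snap25-201 with Syt1-201 to 0.77 for Syt1-201 with Pclo-202. Cplx2-201 and Bsn-201 had r = 0.71, Rims3-201 and Rims1-201 r = 0.62, and Cplx1-201 and Unc13a-201 r = 0.57. These values share library depth and dissection, and are given as a description.

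Over the whole table, the transcripts of other genes that varied most like each leading member were found by the same correlation. Bsn-201 was closest to Ndst1-201 (r = 0.89) and Map1b-201 (0.88), Pclo-202 to Acap3-202 (0.88) and Map1a-201 (0.88), and Unc13a-201 to Pdzd2-201 (0.87) and Fam120a-201 (0.85). Syt1-201 was closest to mt-Nd2-201 (0.86) and mt-Nd1-201 (0.85), subunits of respiratory complex I.

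For Cplx1-201 the nearest were Diras2-201 (r = 0.88) and Aurkaip1-203 (0.88), and for Cplx2-201 they were Rfng-201 (0.85) and Adgrb2-208 (0.83). Snap25-201 was nearest to Ephb6-201 (0.84) and Cdc23-203 (0.80), Rims1-201 to Ppil4-201 (0.83) and Cdkn1b-201 (0.80), and Rims3-201 to Stac2-201 (0.87) and Epop-201 (0.80). Each is the highest or next highest r with any listed transcript of another gene, over 15 libraries.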

How the data were processed

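Total RNA of mouse cortex was measured in 7 Sham and 8 HF-HI libraries, grouped by the labels. The authors depleted ribosomal RNA, made stranded libraries, aligned them to mm10 with STAR, estimated counts per transcript with eXpress and scaled and transformed them with DESeq2. The deposited values are variance-stabilized (VSD), on a log2 scale, and the annotation release was not given in the sources used here. This scale compresses low counts, so that 300 normalized counts doubled add 0.33 to the VSD and 10000 doubled add 0.89.

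The transformation was inverted from the VSD of a zero count (9.81), which gave normalized counts and, within 0.1 reads, whole reads for 100% of values. Log2 ratios are of group mean normalized counts. Names came from GENCODE M21, which matched 10238 transcripts and left 132 without an entry. Transcripts were tested with limma 3.58.1 (R 4.3.3) on VSD, with group as the only term, two-sided, HF-HI minus Sham, adjusted over 10370 transcripts by Benjamini-Hochberg at 0.1, the study's threshold. The study's count test was replaced by limma because the deposited unit is transformed, and this choice was kept after whole reads had been recovered. With limma voom on the reads per transcript, 5 members had an unadjusted p under 0.05 in place of 6, and 878 of all transcripts in place of 916. Reads summed per gene were tested with limma voom, and shares within a gene with limma diffSplice. Levels per kb divide by transcript length. Code was tested on simulated data. Counting precision follows from the worth of 1 read (0.679 to 1.997 normalized counts).

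Members, lists, tests and the naming rule were chosen with earlier results of these data known. By that rule, all member transcripts with an unadjusted p under 0.05 and the most abundant transcript of each gene got full statistics, as did at most 8 transcripts per direction of the wider lists, and the 2 transcripts most like each leading transcript were named. Marker lists also covered GABAergic neurons (0 of 8 transcripts at an unadjusted p under 0.05), hippocampus (0 of 3), astrocytes (1 of 11), oligodendrocytes (0 of 16), microglia (1 of 5), endothelium (0 of 5) and choroid plexus (0 of 5).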

Additional observations from a re-analysis of the deposited data

Results flagged for a closer look

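In 2 of 62 combinations of a member transcript or gene sum with a group, a single library was flagged as far from the others of its group by Dixon's criterion, which chance meets in about 1 in 20 groups. Gene sums were added to this check after the transcripts had been examined, and no transcript was flagged. Rims3-201 was not flagged but also stood apart in Sham 5, at 1576 normalized counts against 1141 to 1320 in the other Sham libraries. The gaps given below for the gene sums are in normalized counts, and the scale of the transcript check was not recorded. The lack of a flag on Rims3-201 is therefore not read as a difference from the Rims3 sum, and Sham 5 is treated as apart in both. Rims3 summed over its transcripts reached 2353 normalized counts in Sham 5 against 1890 to 2075 in the other Sham libraries, a gap of 0.602 of the group's range. Syt1 summed over its transcripts was 10003 in HF-HI 2 against 11748 to 12533 in the other HF-HI libraries, a gap of 0.690 of the range.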

How the results depend on the processing

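No member transcript had an adjusted p under 0.1 under any alternative run (limma). Leaving out each library in turn gave 3 to 7 member transcripts at an unadjusted p under 0.05 (3 without Sham 4), 748 to 987 of all transcripts, 2 to 9 of the wider release machinery (3 and 2 without Sham 1 and 2, 8 or 9 without Sham 4 or HF-HI 1, 3, 4 or 8), 2 to 5 member genes by summed reads (5 without HF-HI 1) and 0 to 2 member genes by transcript share (2 without HF-HI 8, 0 without Sham 1, 2 or 4 or HF-HI 1 or 4). With log2 size factor as a covariate these counts were 1, 533, 5, 0 and 0 in place of 6, 916, 5, 3 and 1. A filter at a mean of 300 normalized counts left 525 of all transcripts, which tests fewer transcripts. Without the 3 shallowest libraries, chosen after seeing the data, the wider machinery had 3, member genes 1 and shares 0, and with the striatal covariate, also added then, the wider machinery had 9 and shares 0. Library weights gave 5 member genes. The shares of all genes passing are given here only for the main fit, 9.43% by summed reads and 3.97% by transcript share. The member gene counts under the other runs therefore cannot be set against a background. The cause of these shifts was not tested.

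The replicate numbers were checked for pairing: deviations of same-numbered libraries correlated between -0.138 and 0.0905, and 1 of 7 Sham libraries was closest to its own number, so the numbers are not read as pairs. With a replicate block over the 7 shared numbers, which drops HF-HI 8, 8 member transcripts, 890 of all transcripts, 9 of the wider machinery, 3 member genes by summed reads and 1 by share passed.

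Transcripts without a call changed sign in places. Rims1-201 had a VSD difference of -0.01, and 0.0127 with library weights, 0.0182 with the depth covariate, 0.00969 without the shallowest libraries and -0.0329 to 0.0188 with a library left out. Bsn-201 went from 0.02 to -0.00132 with the depth covariate and ran from -0.0115 to 0.0540 with a library left out. Syt1-201 went from -0.03 to 0.0250 with the depth covariate. Low transcripts rested on few reads in places. Bsn-202 had 12 reads in its lowest library, Sham 3, and 229 in HF-HI 4, the shallowest library.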
